A study of Mus musculus with 8 samples.

Results

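A set of 34 genes of glycolysis and of the hypoxia response was followed in the hippocampus of mouse embryos with intrauterine growth restriction (IUGR). The genes were taken by name as members of both pathways, with earlier results of these data known, and all 34 were found among the 16397 genes of the count table. All 34 also passed the count filter, so that each was tested. They are 2 alpha subunits of the hypoxia-inducible factor (HIF), 2 glucose transporters, 15 glycolytic enzymes, 6 genes of lactate and pyruvate handling, 2 prolyl hydroxylases that act on HIF and 7 other HIF targets.

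RNA was sequenced from E15.5 hippocampi of 4 IUGR and 4 sham embryos of the C57Bl/6J background, both sexes included. IUGR was induced from E12.5 by a micro-osmotic pump in the pregnant dam that delivered U-46619, an analog of thromboxane A2, which raises the blood pressure of the dam. The sham dams received a pump with vehicle, dilute ethanol, at the same gestational age, so that surgery, pump and vehicle were shared by both groups. The IUGR samples are named T1-1, T1-3, T1-4 and T1-5, and the sham samples S1-4, S1-6, S3-1 and S3-4. What the prefixes stand for is not given in the sources used here, nor is whether any 2 embryos shared a dam, so p values measure only the spread between these samples. Library totals ran from 12919546 to 16672463 counts (IUGR) and from 11212632 to 15405748 counts (sham), and the 34 genes together took between 0.348% and 0.394% of a library.

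Glycolysis splits glucose into pyruvate and yields ATP without oxygen, provided that lactate dehydrogenase turns pyruvate into lactate and a carrier exports it. In the presence of oxygen, prolyl hydroxylases mark the HIF alpha subunits for destruction, and when oxygen is short the subunits persist, bind DNA and raise transcription of glycolytic enzymes, glucose transporters, vessel growth factors and their own inhibitors. This control acts on the HIF alpha proteins, so that the mRNA of the subunits need not move when the response is on. The fetal brain depends mostly on glucose, and its progenitor cells are known for a high rate of glycolysis.

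HIF binds the letters ACGTG or GCGTG on either strand of DNA. The promoters of 2 of the 34 genes are shown because their expression did not overlap between the groups, in opposite directions, and that of Ldha because it held 5 matches, as many as any promoter of the set. Each sequence is the 250 bases before the RefSeq start site on the plus strand of GRCm38.p6, at chr7:110627407-110627656 for Adm, chr10:59323046-59323295 for P4ha1 and chr7:46845554-46845803 for Ldha. Capitals mark the matches, which read CACGT or CACGC where they lie on the opposite strand, and CACGTG holds a match on each strand.
Adm: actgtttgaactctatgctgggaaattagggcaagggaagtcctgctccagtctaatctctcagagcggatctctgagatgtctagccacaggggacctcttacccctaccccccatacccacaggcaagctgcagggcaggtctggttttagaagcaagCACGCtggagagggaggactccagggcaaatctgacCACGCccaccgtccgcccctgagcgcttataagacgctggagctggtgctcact
P4ha1: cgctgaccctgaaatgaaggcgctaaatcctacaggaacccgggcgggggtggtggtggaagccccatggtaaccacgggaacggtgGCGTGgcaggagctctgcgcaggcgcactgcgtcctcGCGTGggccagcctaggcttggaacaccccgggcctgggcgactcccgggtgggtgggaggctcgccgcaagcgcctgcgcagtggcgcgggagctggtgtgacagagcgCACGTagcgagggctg
Ldha: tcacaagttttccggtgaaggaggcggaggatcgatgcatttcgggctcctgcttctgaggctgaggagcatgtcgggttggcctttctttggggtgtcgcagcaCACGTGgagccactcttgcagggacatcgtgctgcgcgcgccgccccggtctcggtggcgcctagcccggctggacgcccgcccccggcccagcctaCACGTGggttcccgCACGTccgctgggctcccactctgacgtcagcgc
A promoter was given for 31 of the 34 genes and was missing for Slc2a3, Bnip3l and Epas1. A match was found in 24 of the 31 promoters (77.4%), compared with 5860 of the 10306 tested genes with a promoter (56.9%), and the median GC content was 62.8% in the set and 60% over those genes. Bnip3, a mitochondrial protein of mitophagy, also held 5 matches, whereas Aldoa, Eno2, Gpi1, Hk1, Pkm, Tpi1 and Vegfa held none. The median log2 fold change of IUGR over sham (log2FC) was 0.05 for the 24 genes with a match, of which 13 were higher in IUGR, and -0.06 for the 7 without, of which 3 were higher. Over the tested genes with a promoter, the median was -0.02 both with and without a match, and 2525 of 5860 genes with a match and 1995 of 4446 without were higher. A match is a run of letters and was not tested as a binding site. Only the 250 bases before a single start site of each gene were searched, so that a gene without a match here may hold one elsewhere.

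By the quasi-likelihood test of edgeR, 0 of the 34 genes differed between IUGR and sham hippocampi at an adjusted p of 0.05 or less, with Benjamini-Hochberg adjustment over 13707 protein-coding genes. Accordingly, 0 met the stricter rule that also asks for an absolute log2FC of 1 or more. Over all tested genes, 1.55% passed the adjusted p and 1.46% passed both criteria. DESeq2's Wald test and limma-voom also put 0 of the 34 at an adjusted p of at most 0.05, compared with 4.26% and 2.55% of all tested genes. An unadjusted p under 0.05 was found for 3 of the 34 genes, Slc2a3 and Adm, which were higher, and P4ha1, which was lower. Over all tested genes this share was 11.1%, of which 4.46% were higher and 6.62% lower, so that the count in the set was close to the background. The values of the 4 IUGR and the 4 sham samples did not overlap for 2 genes, Adm, which was higher, and P4ha1, which was lower, compared with 7.14% of all tested genes (2.08% higher and 5.06% lower). In all, 18 genes had a log2FC above 0 and 16 below, compared with 44.5% above 0 over all tested genes, with a median log2FC of 0.05 compared with -0.02 over all tested genes. The log2FC was under 0.5 in size for 32 of the 34 genes (94.1%), compared with 84.8% of all tested genes. The 95% interval of the fold change lay within 1 log2 unit of 0 for 30 genes (88.2%), compared with 76.8% of all tested genes, the exceptions being Slc16a1, Slc16a3, Ankrd37 and Adm.

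**Figure D1:**
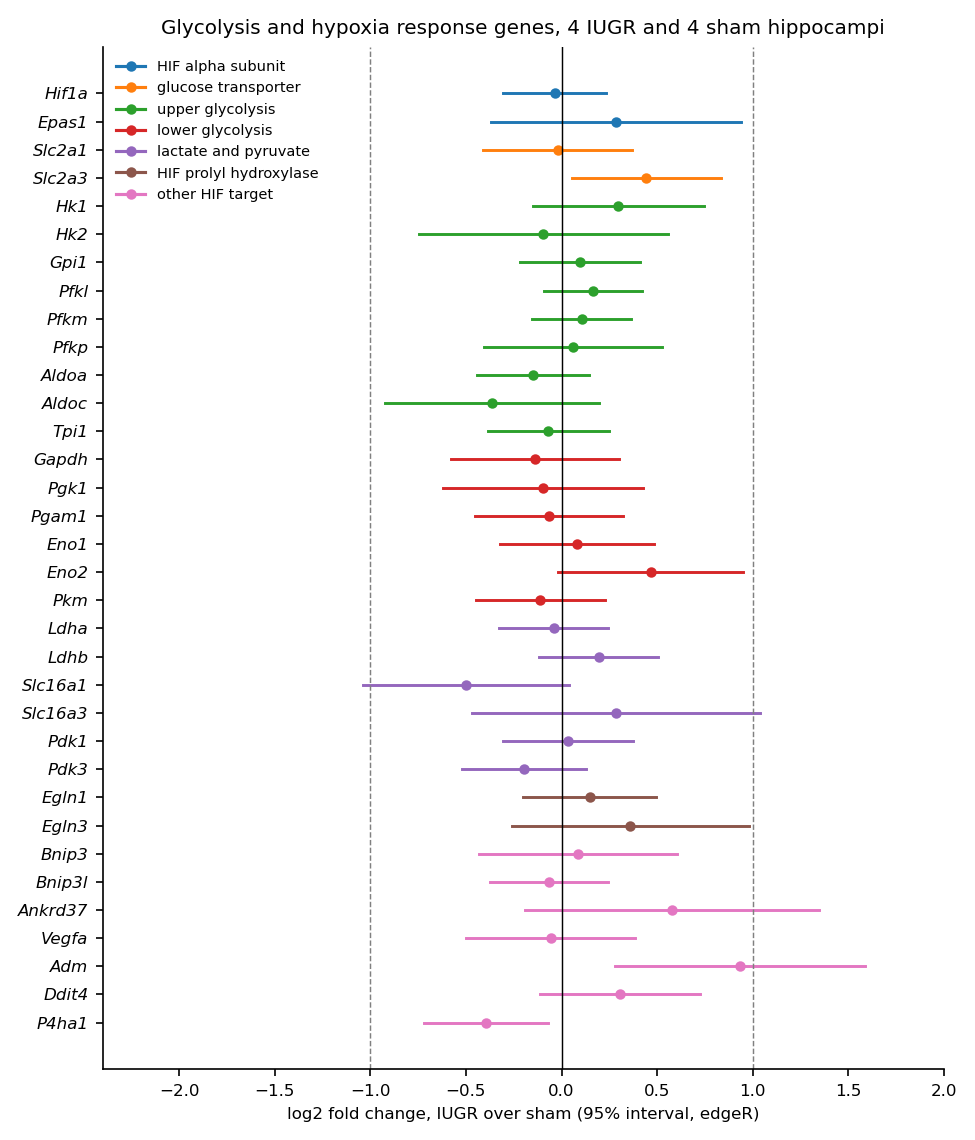
Log2 fold change of IUGR over sham hippocampi for each of the 34 genes (points) with its 95% interval from edgeR (lines), coloured by role, 4 samples per group; dashed lines mark an absolute log2 fold change of 1. The points lie between -0.50 for Slc16a1 and 0.94 for Adm, and only the intervals of Slc2a3, Adm and P4ha1 leave out 0.

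Adm encodes adrenomedullin, a peptide that widens vessels, and had the largest log2FC of the set. The gene (ENSMUSG00000030790, chr7:110627661-110629820, plus strand, GRCm38) had the fewest counts of the 34, with 37, 38, 46 and 38 counts in IUGR samples T1-1, T1-3, T1-4 and T1-5 and 19, 20, 20 and 16 counts in sham samples S1-4, S1-6, S3-1 and S3-4. In counts per 1000000 (CPM), its level was 2.77, 2.34, 3.88 and 2.89 in the IUGR samples and 1.76, 1.73, 1.57 and 1.14 in the sham samples. Each IUGR sample was above each sham sample. Means were 2.97 ± 0.65 in IUGR and 1.55 ± 0.28 in sham hippocampi (CPM ± SD, n = 4 each), which gave a log2FC of 0.94 (standard error, SE, 0.29, 95% interval 0.28 to 1.59). The unadjusted p was 0.0095 and the adjusted p 0.193 in edgeR's test. The exact two-sided permutation p was 0.0286, the smallest that 4 against 4 samples can give. Any gene whose groups do not overlap has this permutation p, so that it only restates the separation. Leaving out each sample in turn gave log2FCs from 0.78 to 1.07, with adjusted p from 0.137 to 0.486. Against sham samples of the prefix S1 alone the log2FC was 0.79, and against those of S3 alone 1.175. It was 0.75 with T1-1 and T1-4 left out together. The unadjusted p of edgeR's test was no longer under 0.05 against S1 alone or with T1-1 and T1-4 left out.

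P4ha1, a subunit of the prolyl hydroxylase that matures collagen, had the opposite direction. Its gene (ENSMUSG00000019916, chr10:59323296-59373304, plus strand) gave 62.3, 61.6, 53.5 and 65.2 CPM in the IUGR samples, in the order above, and 94.5, 87.1, 71.4 and 66.0 CPM in the sham samples. The groups did not overlap, but the highest IUGR sample and the lowest sham sample, S3-4, were close. The log2FC was -0.39 (SE 0.15, 95% interval -0.72 to -0.07, unadjusted p = 0.0219 and adjusted p = 0.298 in edgeR's test). The exact permutation p of 0.0286 again follows from the lack of overlap. Leaving out each sample in turn gave log2FCs from -0.48 to -0.26, the latter without S1-4, and the unadjusted p of edgeR's test was no longer under 0.05 without T1-4, S1-4 or S1-6. Against sham samples of the prefix S1 alone it was -0.56, and against those of S3 alone -0.13.

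The other HIF targets overlapped between the groups. Vegfa, the growth factor of vessels, was at 49.8, 72.2, 82.2 and 61.4 CPM in IUGR and at 81.0, 83.7, 58.2 and 53.6 CPM in sham hippocampi, a log2FC of -0.06 (SE 0.20). Both groups spanned nearly the same range. Ankrd37, an ankyrin repeat protein induced by hypoxia, gave 7.42, 9.83, 11.4 and 17.2 CPM in IUGR and 7.12, 8.92, 10.9 and 3.78 CPM in sham samples. Its log2FC of 0.58 had a SE of 0.35 (edgeR adjusted p = 0.700) and ranged from 0.31 to 0.80 with each sample left out in turn. T1-5 stood above the other IUGR samples, and S3-4 below the other sham samples. Exons of Lrp2bp and Ufsp2 overlap Ankrd37 on the other strand, and the strand setting of the counting is not given in the sources used here. Ddit4, an inhibitor of the growth kinase mTOR, lay between 54.6 and 70.1 CPM in IUGR and between 40.5 and 72.1 CPM in sham samples (log2FC 0.31, SE 0.19). Bnip3 and its relative Bnip3l had log2FCs of 0.09 and -0.07.

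The HIF alpha subunits and the hydroxylases that act on them did not separate the groups. Hif1a, the broadly expressed alpha subunit, was measured at 331, 293, 320 and 363 CPM in IUGR samples and at 346, 289, 367 and 337 CPM in sham samples. These values interleaved, with a log2FC of -0.04 (SE 0.12, 95% interval -0.31 to 0.23). Epas1, which encodes HIF-2 alpha and is known from endothelial cells, was at 15.4, 24.8, 13.6 and 22.6 CPM in IUGR and at 15.8, 22.7, 8.71 and 15.5 CPM in sham samples. The groups overlapped (log2FC 0.29, SE 0.30, 95% interval -0.37 to 0.94), with S3-1 below the rest. Markers of endothelial cells and pericytes overlapped likewise, with a mean of 12 genes between 4.57 and 5.33 log2 CPM in IUGR and between 4.33 and 4.99 log2 CPM in sham samples, and 10 of the 12 were higher in IUGR, 2 of them at an unadjusted p under 0.05. The part of that list in the Epas1 values was not tested. Per kb of exon, Hif1a stood at 56.8 CPM and Epas1 at 2.81 CPM in sham hippocampi. Egln1 and Egln3, the hydroxylases, had log2FCs of 0.15 (SE 0.16) and 0.36 (SE 0.28).

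Of the glucose transporters, Slc2a3, which encodes the neuronal transporter GLUT3, was higher in IUGR at an unadjusted p only. Its gene (ENSMUSG00000003153, chr6:122727809-122801640, minus strand) was at 38.7, 34.7, 27.5 and 43.4 CPM in IUGR samples and at 23.6, 23.5, 31.9 and 27.0 CPM in sham samples. T1-4 lay among the sham values, and the other 3 IUGR samples were above each sham sample. The log2FC was 0.44 (SE 0.18, 95% interval 0.06 to 0.83, unadjusted p = 0.0287 and adjusted p = 0.339 in edgeR's test, exact permutation p = 0.0571). The unadjusted p of that test was no longer under 0.05 without T1-5, S1-6 or S3-4, nor against sham samples of the prefix S3 alone, and the log2FC ranged from 0.34 to 0.55 with each sample left out. Neuron markers had the same direction in these libraries, with 13 of 13 higher in IUGR, 7 of them at an unadjusted p under 0.05 and 0 at an adjusted p of at most 0.05. Their mean was between 7.23 and 7.68 log2 CPM in IUGR and between 6.77 and 7.13 log2 CPM in sham samples, without overlap, and their part in the Slc2a3 values was not tested. In bulk tissue, fewer cells of a type and less RNA per cell cannot be told apart. Slc2a1, which encodes GLUT1 of the vessel wall and other cells, was at 80.2, 85.9, 59.7 and 63.0 CPM in IUGR and at 81.0, 88.5, 59.1 and 64.5 CPM in sham samples. The 2 groups held nearly the same values, and the log2FC was -0.02 (SE 0.18), with a sign that turned under other scalings, which moved the median of all tested genes by about as much.

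**Figure D2:**
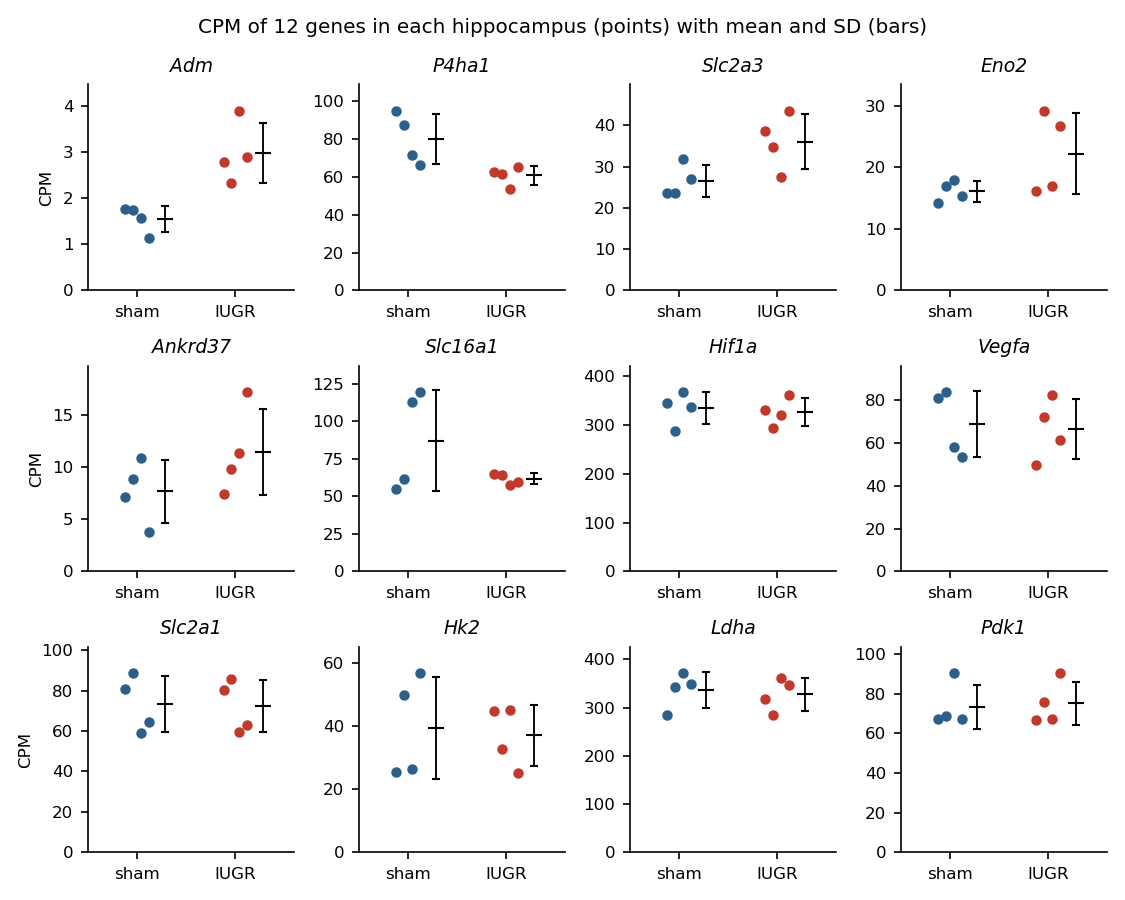
CPM of 12 of the genes in each sham (blue) and IUGR (red) hippocampus, each panel with its own linear axis from 0, and bars for the mean and SD of 4 samples. The groups separate for Adm and P4ha1 and overlap in the other 10 panels, and the sham values of Slc16a1 form a low and a high pair.

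The 15 glycolytic enzymes showed no shared direction. Of them, 7 were higher and 8 lower in IUGR, with log2FCs between -0.36 for Aldoc and 0.47 for Eno2, a median of -0.07, and 0 at an unadjusted p under 0.05. The 95% intervals of all 15 lay within 1 log2 unit of 0. Summed over the 15 enzymes, the level was between 2045 and 2429 CPM in IUGR samples and between 2252 and 2519 CPM in sham samples. In the upper part of the pathway, Hk2, the inducible hexokinase that traps glucose in the cell, was at 45.0, 32.8, 45.2 and 25.3 CPM in IUGR and at 25.3, 49.8, 26.3 and 56.7 CPM in sham samples. Its values varied more within each group, with SDs of 9.74 CPM in IUGR and 16.1 CPM in sham, than the means of 37.1 and 39.5 CPM differed (log2FC -0.10, SE 0.29). Hk1, the constitutive hexokinase, had a log2FC of 0.30 (SE 0.20), and Gpi1, which isomerizes glucose 6-phosphate, one of 0.10 (SE 0.14). The 3 phosphofructokinase genes, whose enzyme commits sugar to the pathway, gave 0.17 for Pfkl, 0.10 for Pfkm and 0.06 for Pfkp.

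Aldoc, the aldolase of astrocytes and radial glia, had the lowest log2FC of the enzymes. It was at 269, 159, 127 and 160 CPM in IUGR and at 170, 190, 255 and 305 CPM in sham samples. The sham samples of prefix S3 were above those of S1, and T1-1 was above S3-1, so that the groups overlapped (log2FC -0.36, SE 0.25, edgeR adjusted p = 0.804). The log2FC was 0.02 against S1 alone and -0.61 against S3 alone, with adjusted p of 1 and 0.561 in edgeR's test. Markers of radial glia and progenitors overlapped between the groups, with 4 of 11 higher and a mean between 7.90 and 8.26 log2 CPM in IUGR and between 7.94 and 8.31 log2 CPM in sham samples. Aldoa, the general aldolase, and Tpi1, which interconverts the products of aldolase, gave log2FCs of -0.15 (SE 0.13) and -0.07 (SE 0.14).

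Eno2, the neuronal enolase, had the highest log2FC of the enzymes. Its levels were 16.2, 29.1, 17.02 and 26.7 CPM in IUGR samples and 14.1, 17.1, 17.9 and 15.4 CPM in sham samples. T1-3 and T1-5 stood above the highest sham sample, and T1-1 and T1-4 lay within the sham range. The log2FC was 0.47 (SE 0.22, 95% interval -0.02 to 0.95, unadjusted p = 0.0579 and adjusted p = 0.480 in edgeR's test). T1-3 and T1-5 were also highest of the IUGR samples in several marker lists, with means of 7.33 and 5.37 log2 CPM for meningeal, 5.33 and 4.95 for endothelial and pericyte, 4.16 and 3.76 for microglial and 3.08 and 3.39 for markers of the choroid plexus, the secretory tissue beside the hippocampus. Neuron markers were at 7.23, 7.68, 7.57 and 7.32 log2 CPM in T1-1, T1-3, T1-4 and T1-5, above the sham samples throughout, and the part of these lists in the Eno2 values was not tested. The other enzymes of the lower part were flat, with log2FCs of -0.14 for Gapdh, -0.10 for Pgk1, -0.07 for Pgam1, 0.08 for Eno1 and -0.11 for Pkm, and SEs between 0.15 and 0.24. Pkm, which makes pyruvate, had the highest counted level of the set per kb of exon, at 185 CPM per kb in sham hippocampi. This rank holds for the counts as deposited, since the levels of Gapdh, Pgk1, Pgam1 and Eno1 are uncertain, as given below.

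The levels of 5 genes should be read with the sequence that they share with other genes. Gapdh, Pgk1, Pgam1, Eno1 and Bnip3 stood at 4.92, 6.23, 4.80, 19.2 and 8.73 CPM per kb in sham hippocampi, within the range of 0.957 (Adm) to 70.5 (Aldoc) of the 13 genes that shared no sequence and below the 102 of Tpi1 and Ldha. Of the windows of 50 bases in their transcripts, 58.4% for Gapdh, 68.0% for Pgk1, 41.5% for Pgam1, 49.5% for Eno1 and 59.1% for Bnip3 were also found without mismatch in transcripts of other genes. For Gapdh, 213 of the 222 other genes were pseudogenes. How reads with several matches were counted is not given in the sources used here, so that the levels of these 5 genes are uncertain, and the part of shared sequence in them was not tested. The other genes of the set shared at most 24.5% of their windows, and Epas1, Slc2a3, Hk2, Aldoc, Slc16a1, Slc16a3, Pdk1, Pdk3, Egln1, Egln3, Adm, Ddit4 and P4ha1 are the 13 that shared none.

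**Figure D3:**
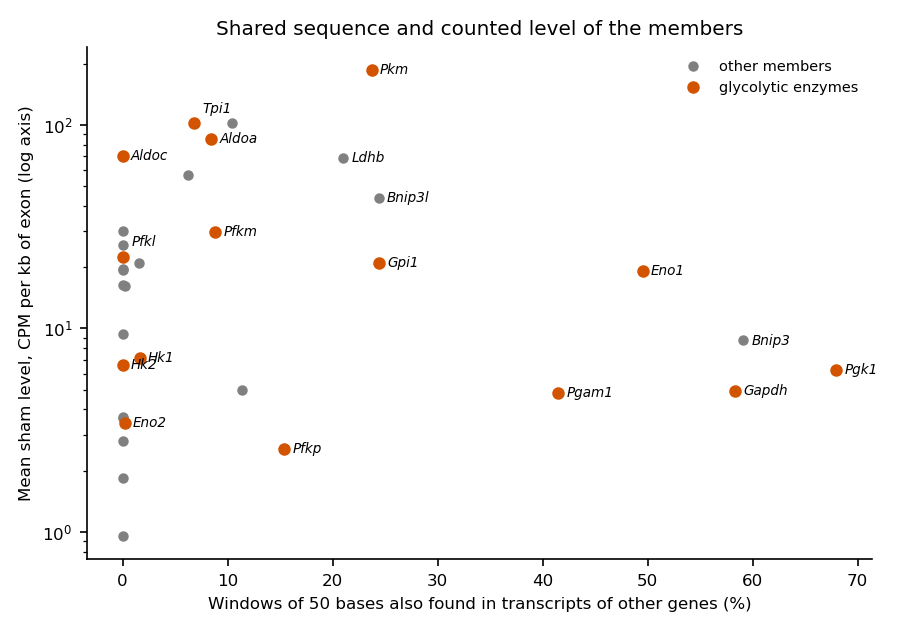
Mean level of each gene in the 4 sham hippocampi, in CPM per kb of exon on a log axis, against the percentage of its windows of 50 bases that are also found in transcripts of other genes. The 5 genes above 40%, which are Pgk1, Bnip3, Gapdh, Eno1 and Pgam1, lie between 4.80 and 19.2 CPM per kb, and the genes at 0% lie between 0.957 and 70.5.

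Genes that turn pyruvate into lactate or admit it to mitochondria did not differ at the adjusted p. Ldha, the lactate dehydrogenase subunit that favors lactate, was at 317, 284, 361 and 346 CPM in IUGR and at 284, 342, 371 and 348 CPM in sham samples. The groups shared nearly one range, and the log2FC was -0.04 (SE 0.13, 95% interval -0.32 to 0.24). Ldhb, the subunit that favors pyruvate, had a log2FC of 0.19 (SE 0.14). Pdk1, a kinase that switches off pyruvate dehydrogenase, was at 66.8, 75.8, 67.5 and 90.3 CPM in IUGR and at 67.2, 68.6, 90.3 and 67.1 CPM in sham samples. T1-5 and S3-1 stood above the others at the same level, and the log2FC was 0.03 (SE 0.15). Pdk3, another such kinase, gave -0.20 (SE 0.15).

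Slc16a1, which encodes the lactate carrier MCT1, had the lowest log2FC of the set, and the value rested on 2 sham samples. Its levels were 65.1, 64.1, 57.7 and 59.7 CPM in IUGR samples T1-1, T1-3, T1-4 and T1-5, 55.1 and 61.6 CPM in sham samples S1-4 and S1-6, and 113 and 119 CPM in sham samples S3-1 and S3-4. The S1 samples lay at the level of the IUGR group, whereas the S3 samples were 1.99 times as high as those of S1. The log2FC was -0.50 (SE 0.24, unadjusted p = 0.0661 and adjusted p = 0.512 in edgeR's test) against all sham samples, 0.11 against S1 alone and -0.86 against S3 alone, with adjusted p of 1 and 0.102 in that test. The meaning of the prefix is not known, and as all IUGR samples carry T1, prefix and group cannot be told apart. Slc16a3, the lactate exporter MCT4 of glycolytic cells, was at 8.69 to 18.0 CPM in IUGR and at 4.85 to 14.5 CPM in sham samples (log2FC 0.28, SE 0.34). With each sample left out in turn, its log2FC ranged from 0.021 to 0.53.

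Ratios of isozymes within a library do not depend on how libraries are scaled, and 8 such log2 ratios of CPM were compared between the groups by exact two-sided permutation tests with Benjamini-Hochberg adjustment over the 8. The groups overlapped in each, and none passed, although with 4 against 4 samples the smallest p is 0.0286 and a single ratio at that p could not have passed after adjustment over the 8. The largest difference was that of Slc2a3 over Slc2a1, which ranged from -1.30 to -0.53 in IUGR and from -1.90 to -0.89 in sham samples, a difference in means of 0.45 (exact permutation p = 0.229, adjusted p = 0.571). Ldha over Ldhb had the smallest p, with a mean of 1.41 ± 0.19 in IUGR and 1.64 ± 0.21 in sham samples, a difference of -0.23 (exact permutation p = 0.143, adjusted p = 0.571). Differences were 0.35 for Epas1 over Hif1a, 0.33 for Eno2 over Eno1, 0.15 for Bnip3 over Bnip3l, -0.24 for Aldoc over Aldoa, -0.34 for Hk2 over Hk1 and -0.02 for Pfkp over Pfkm. These sizes depended on single samples. Epas1 over Hif1a ranged from 0.050 without S3-1 to 0.62 without S1-6, and Eno2 over Eno1 from 0.13 without T1-5 to 0.56 without T1-1. Aldoc over Aldoa ranged from -0.49 without T1-1 to -0.011 without S3-4, and Hk2 over Hk1 from -0.56 without S1-4 to -0.13 without S3-4. Slc2a3 over Slc2a1 ranged from 0.30 without T1-5 to 0.64 without S3-1, Bnip3 over Bnip3l from 0.092 without T1-5 to 0.24 without S3-1, and Ldha over Ldhb from -0.31 without T1-5 to -0.15 without S3-1.

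**Figure D4:**
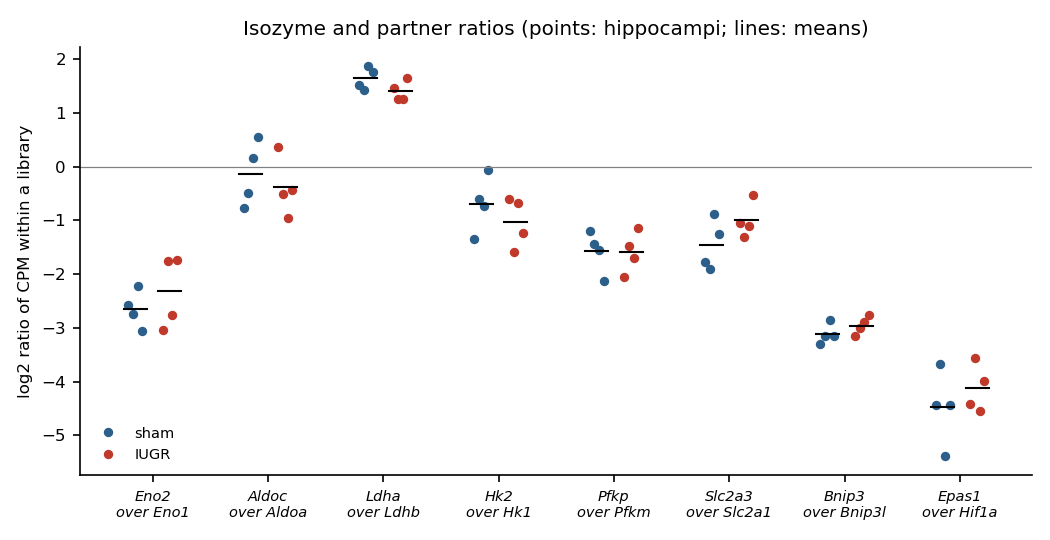
Log2 ratio of the CPM of 2 related genes within each library, for sham (blue) and IUGR (red) hippocampi, with lines for the mean of 4 samples. Values are read between groups and not between pairs, since gene length is not divided out, and the groups overlap in all 8 pairs.

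Beyond the 34 genes, 77 of 87 further genes of the same pathways were tested in the same fit. At an adjusted p of at most 0.05, 0 were higher and 3 were lower in IUGR, and at an unadjusted p under 0.05, 3 were higher and 6 lower. Over all 13707 tested genes, 17 were higher and 196 lower at the adjusted p (1.55% together), and an unadjusted p under 0.05 was found for 4.46% higher and 6.62% lower, so that the counts at the unadjusted p were close to the background. DESeq2's Wald test put 1 of the 77 higher and 4 lower at the adjusted p, which 4.26% of all tested genes passed in that test. The groups did not overlap for 1 gene that was higher, Slc16a7, and 6 that were lower, Slc16a8, Bsg, Emb, Car12, Hkdc1 and Slc2a12, compared with 2.08% higher and 5.06% lower over all tested genes. Of 13 partners and regulators of HIF, such as Arnt, Vhl and Ep300, 0 had an unadjusted p under 0.05, with log2FCs between -0.12 and 0.13. Those with the smallest p, Egln2 and Ep300, stood at 0.10 and -0.12. Of 7 enzymes of the pentose phosphate pathway, which branches off glycolysis, 0 had an unadjusted p under 0.05, and Tkt and Pgd had log2FCs of -0.28 and 0.14. Of 13 other genes of glycolysis, 0 passed the adjusted p and 2 had an unadjusted p under 0.05, the hexokinase-like gene Hkdc1 (log2FC -3.69, edgeR adjusted p = 0.0607) and the sugar transporter gene Slc2a12 (-1.84, adjusted p = 0.290). Both were without overlap between the groups, although a single IUGR sample, T1-3, reached 25.3 CPM for Slc2a12, compared with 31.5 CPM in the lowest sham sample.

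Among 15 further genes of pyruvate and lactate handling, 2 fell and 0 rose at an adjusted p of at most 0.05, which 1.55% of all tested genes passed in either direction. They were a lactate carrier and the partner of such carriers, while the median log2FC of the 15 was -0.02. Slc16a8, which encodes the lactate carrier MCT3 of the choroid plexus and retinal epithelia, had 0, 4, 0 and 0 counts in IUGR and 39, 23, 52 and 34 counts in sham samples, in the same order (edgeR adjusted p = 0.0106). Only T1-3 of the IUGR group held reads of it, and its fitted fold change depends on the prior count. Bsg, which encodes basigin, the protein that carries MCT1 and MCT4 to the cell surface, was at 180, 223, 185 and 178 CPM in IUGR and at 356, 315, 320 and 267 CPM in sham samples. The groups did not overlap, and the log2FC was -0.71 (SE 0.13, adjusted p = 0.0265 in edgeR's test), short of the absolute log2FC of 1 that a call needs. Emb, which encodes the related chaperone embigin, and Slc16a7, which encodes the carrier MCT2 of neurons, did not pass the adjusted p in edgeR's test and are named after their values were seen. Emb was between 11.6 and 40.2 CPM in IUGR and between 56.6 and 95.03 CPM in sham samples (log2FC -1.71, edgeR adjusted p = 0.0571), and Slc16a7 between 6.83 and 11.3 CPM in IUGR and between 3.14 and 6.12 CPM in sham samples (0.93, adjusted p = 0.149). Both passed in DESeq2's Wald test, with adjusted p of 0.00027 for Emb and 0.0312 for Slc16a7, and the adjusted p of Emb in edgeR's test ranged from 0.0137 to 0.183 with each sample left out and passed only without T1-5. Among 29 other HIF targets, with a median log2FC of 0.08, 1 fell at the adjusted p and 0 rose. This was Car12, a carbonic anhydrase of secretory epithelia, at 2.25, 9.59, 1.26 and 20.2 CPM in IUGR and at 124, 91.6, 81.7 and 90.4 CPM in sham samples (log2FC -3.53, SE 0.67, adjusted p = 0.0306 in edgeR's test). At an unadjusted p under 0.05, 2 of the 29 were higher, Pgm2 and Flt1, and Car12 alone was lower. Pgm2 and Flt1 had log2FCs of 0.46 and 0.61 (adjusted p = 0.217 and 0.332 in edgeR's test), and their groups overlapped.

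Between the groups, Slc16a8, Bsg and Car12 had the direction of the choroid plexus markers. Of the 14 listed markers, all but Ttr were tested, and all 13 tested were lower in IUGR. Each of the 13 had an unadjusted p under 0.05 in edgeR's test, and 3 had an adjusted p of at most 0.05. Their summed level was between 33.3 and 227 CPM in IUGR and between 800.3 and 1212 CPM in sham samples, with means of -0.15, 3.08, -0.61 and 3.39 log2 CPM in T1-1, T1-3, T1-4 and T1-5 and 5.00 to 5.69 in the sham samples. Within the IUGR group, T1-5 was highest in these markers but had 0 counts of Slc16a8 and the lowest level of Bsg, whereas Car12, Emb, Hkdc1 and Slc2a12 were each higher in T1-3 and T1-5 than in T1-1 and T1-4. The part of that tissue in these genes was not tested. T1-1 and T1-4 are the IUGR samples lowest in these markers, and leaving both out was chosen after seeing the data. The adjusted p in edgeR's test was then 0.0289 for Slc16a8, 0.114 for Bsg (log2FC -0.65) and 0.0129 for Car12 (log2FC -2.71). The IUGR samples kept, T1-3 and T1-5, had summed marker levels of 214 and 227 CPM, below each sham sample. This fit therefore does not set the difference in these markers aside. Leaving out 1 sample at a time gave adjusted p from 0.0088 to 0.0506 for Slc16a8, lost only without S1-4, from 0.0251 to 0.135 for Bsg, which passed only without T1-3 or S3-4, and from 0.0108 to 0.116 for Car12, which passed only without T1-4 or T1-5. Meningeal markers were higher in IUGR for 7 of 7 genes, 0 of them at an unadjusted p under 0.05, with means from 2.0 log2 CPM in T1-4 to 7.33 in T1-3 and from 3.47 to 4.99 in sham samples. Erythroid markers (10 of 10 higher) and microglial markers (6 of 6 higher), with 0 at an unadjusted p under 0.05 in either list, overlapped between the groups, as did hippocampal and forebrain markers (9 of 9 lower, 2 of them at an unadjusted p under 0.05, with a mean between 6.30 and 6.73 log2 CPM in IUGR and between 6.07 and 7.41 log2 CPM in sham samples).

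**Figure D5:**
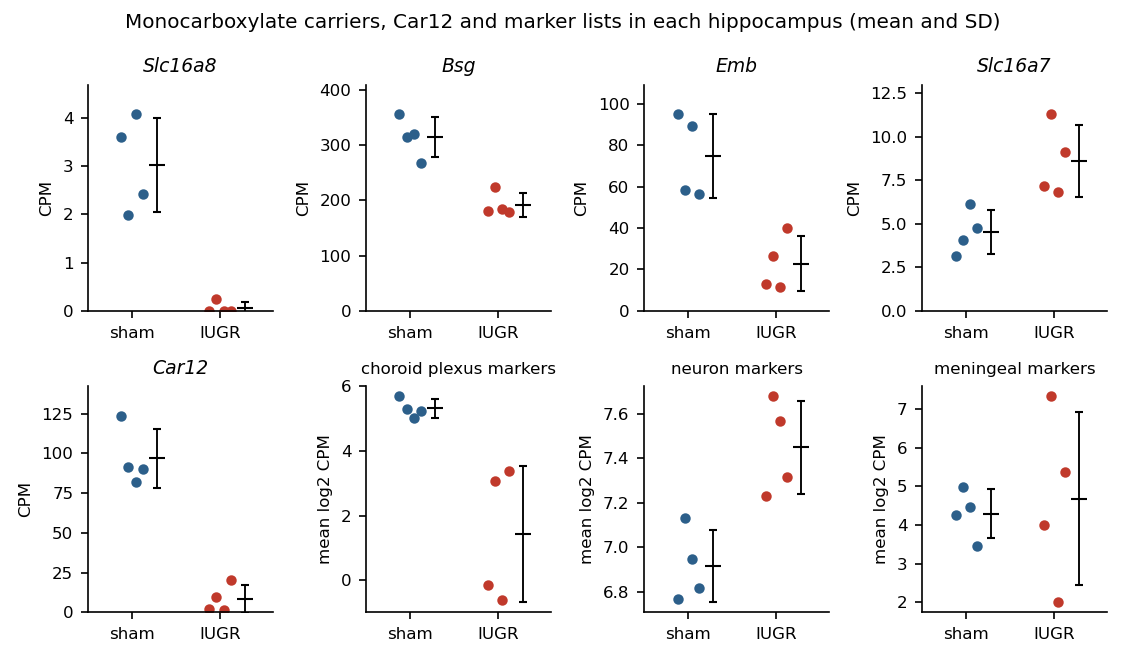
CPM of 5 genes of lactate transport and acid handling, and the mean log2 CPM of 3 marker lists, in each sham (blue) and IUGR (red) hippocampus, with bars for the mean and SD of 4 samples. Slc16a8, Bsg, Emb and Car12 lie lower and Slc16a7 higher in IUGR without overlap, 5 of the 7 genes among the 77 for which this held (7.14% over all tested genes), as the choroid plexus markers lie lower and the neuron markers higher, while meningeal markers overlap; axes of the marker panels do not start at 0.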

How the data were processed

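The authors sequenced total RNA without ribosomal RNA as single reads from stranded libraries, and the submitters' processing notes name Novoalign 2.8 and the build mm10. The deposited values are raw counts of reads on each gene, and the read length, counting program and strand setting are not given in the sources used here. All 8 samples were used. Identifiers were matched to GENCODE M21 (16124 of 16397). Protein-coding genes were tested where the mean count reached 10 and stayed below 50000 (13707 genes, with 3 above the upper limit). The test was edgeR's (version 4.0.16 in R 4.3.3), with TMM scaling, quasi-likelihood dispersions and Benjamini-Hochberg adjustment over all tested genes, for 4 samples per group. Calls needed an adjusted p up to 0.05 and an absolute log2FC from 1. CPM used TMM-adjusted library sizes, log2 CPM a prior count of 2, and CPM per kb the exon length. Standard errors are those implied by the F statistic.

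The 34 genes, the further pathway genes and the marker lists were chosen with earlier results of these data known. Of the 34 genes, values of every sample were printed for those with an unadjusted p under 0.05 or without overlap, for Hif1a, Epas1, Vegfa, Slc2a1, Hk2, Ldha and Pdk1, and for the 3 largest and 3 smallest log2FC. Of each further list, genes that passed the adjusted p, or otherwise the 2 with the smallest p, were named. Emb, Slc16a7, Pgm2 and Flt1 were named in addition, after their values were seen. Promoters are from RefSeq. The scripts were tested on simulated data. As alternatives, edgeR was run with the size factors of DESeq2 or upper-quartile scaling, other count limits or all biotypes, without each sample in turn and with sham samples of 1 prefix. DESeq2 1.42.0 and limma-voom (limma 3.58.1) were used in place of edgeR, and a prior count of 0.5 in place of 2. Leaving out T1-1 and T1-4 together was chosen after seeing the data.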

Additional observations from a re-analysis of the deposited data

Results flagged for a closer look

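In 4 of the 68 groups of 4 samples looked at (34 genes in 2 groups), 1 sample lay far from the other 3, by Dixon's test at the 95% level, for which chance alone gives about 1 in 20 groups. Gpi1, glucose phosphate isomerase, was low in IUGR sample T1-5, at 120.6 CPM compared with 151 CPM or more in the other IUGR samples. Tpi1, triose phosphate isomerase, was high in sham sample S3-1, at 332.8 CPM compared with 267 CPM or less in the others. Pdk1, a kinase of pyruvate dehydrogenase, was high in the same sample, at 90.29 CPM compared with 68.6 CPM or less. Ldhb, a lactate dehydrogenase subunit, was high in sham sample S1-6, at 127.8 CPM compared with 103 CPM or less.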

How the results depend on the processing

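The count of 0 called genes among the 34 was the same in each alternative run. Over 645 alternative fold changes of the 34 genes, 586 kept their sign and 59 did not, and 14 genes, Adm, P4ha1, Slc2a3 and Eno2 among them, kept it throughout. The largest absolute log2FC of a gene whose sign turned was 0.50, that of Slc16a1. The number with an unadjusted p under 0.05 was 2 to 5 with each sample left out in turn, compared with 8.27% to 11.7% of all tested genes, and the number without overlap 2 to 4. The latter was 1 with a mean count of at least 50, which drops Adm and where 6.00% of all tested genes did not overlap, and 6, 7 and 6 with sham S1 alone, sham S3 alone or T1-1 and T1-4 left out, where fewer samples are compared and 15.9%, 17.9% and 21.9% of all tested genes did not overlap, against shares of 17.6%, 20.6% and 17.6% in the set. With each sample left out, between 8.40% and 11.1% of all tested genes did not overlap. Over all tested genes, 425 were called with DESeq2's Wald test, 328 with limma-voom, 73 with a mean count of at least 50, 0 with sham S1 alone, 2 with sham S3 alone and 24 to 302 with each sample left out. The Wald test put 1 further gene of pyruvate and lactate handling higher (Slc16a7) and 3 lower (Slc16a8, Bsg and Emb) at the adjusted p, compared with 0 and 2 in edgeR's test, while the share of all tested genes that passed was 4.26% and 1.55%, and 1 was lower with T1-1 and T1-4 left out, where 1.80% passed. With each sample left out, 0 to 2 of these genes, 0 to 1 of the other glycolysis genes and 0 to 1 of the other HIF targets were lower, while between 0.175% and 2.26% of all tested genes passed in either direction. The sign of Slc2a1 turned with DESeq2 size factors (0.0020), upper-quartile scaling (0.0042), the Wald test (0.0023) and a mean count of at least 50 (0.014), settings in which the median of all tested genes moved by about as much, from -0.023 to 0.0020, 0.0016, 0.0017 and 0.0094. With sham S1 alone it turned for Hif1a (0.063), Hk2 (0.013), Pfkp (-0.15), Aldoc (0.019), Tpi1 (0.065), Pgk1 (0.28), Pkm (0.054), Ldha (0.089), Slc16a1 (0.11), Slc16a3 (-0.047), Pdk3 (0.031) and Bnip3l (0.044). With sham S3 alone it turned for Slc2a1 (0.27), Aldoa (0.086), Pgam1 (0.042), Pdk1 (-0.018), Bnip3 (-0.060) and Vegfa (0.30), and without T1-1 and T1-4 for Slc2a1 (0.024), Eno1 (-0.14) and Bnip3l (0.011). With each sample left out in turn, signs turned within these ranges: Bnip3 -0.11 to 0.28, Bnip3l -0.18 to 0.024, Eno1 -0.0055 to 0.21, Gapdh -0.27 to 0.023, Hif1a -0.10 to 0.046, Hk2 -0.25 to 0.13, Pfkp over Pfkm -0.20 to 0.14, Ldha -0.091 to 0.055, Pdk1 -0.065 to 0.15, Pfkp -0.10 to 0.23, Pgam1 -0.12 to 0.045, Pgk1 -0.19 to 0.059, Pkm -0.19 to 0.023, Slc2a1 -0.11 to 0.082, Tpi1 -0.14 to 0.029 and Vegfa -0.18 to 0.10. The cause of the turns with samples left out was not tested. No paired analysis was run, because the sources used here give no pairing of IUGR with sham samples. Of the 34 genes, Adm had the fewest counts, with 16 to 46 per sample.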
